A study of Arabidopsis thaliana with 12 samples.

Results

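The acidic proteins of the ribosomal stalk, P1, P2 and P3, were examined through 10 of the genes that encode them on the array, out of 22746 targets tested (probe sets, each a group of probes for a transcript). The 10 genes were chosen by name, as 3 P1, 5 P2 and 2 P3 genes, but they were selected on a view of their polysomal and non-polysomal signals in these same arrays, so their values are given as a description. Seedlings of *Arabidopsis thaliana*, ecotype Columbia, either had the gene for eIF3k disrupted by a T-DNA (*eif3k*) or were wild-type (WT). eIF3k is an accessory subunit of eIF3, the factor that brings the small ribosomal subunit to mRNA, and the design asks whether its loss alters the ribosome loading of mRNAs. The aerial part was harvested from both genotypes at 11 days, on the same sucrose medium, and lysates were run through sucrose gradients, in which the 6 lower fractions were pooled as polysomal mRNA (PL) and the 6 upper fractions as non-polysomal mRNA (NP). Each of the 12 pools, 3 replicates for each genotype and fraction, was hybridized to an Affymetrix ATH1 array. The mutant is a single line with its insertion in intron 6, from which the study's methods describe a 3′ truncated transcript. The position of the eIF3k probes relative to the insertion was not analysed here.

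The stalk is a flexible arm of the large subunit next to the site where elongation factors bind. The protein P0 forms its base together with L12, and dimers of the small acidic proteins P1 and P2 attach to P0. Their shared acidic tail contacts the GTP-hydrolysing factors of translation, eEF2 among them, and P3 is a form of the protein that plants have in addition to P1 and P2.

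Microarray data of replicates 1 and 2 were generated on another date than those of replicate 3, called array batches 1 and 2 here. WT replicate 3 stood apart. Its translation state (TL, log2 PL minus log2 NP of the same replicate) correlated with those of the other 5 samples at 0.30 to 0.36 across all probe sets, whereas the other 5 correlated with one another at 0.74 to 0.90. The SD of the signals on its PL array was 1.94, against 2.15 to 2.29 on the other 11 arrays. The gene for eIF3k itself had PL signals of 7.17, 7.06 and 7.63 in *eif3k*, against 8.61, 8.89 and 7.28 in WT, and NP signals of 7.30, 7.93 and 8.05, against 9.26, 9.45 and 9.01. NP signals of the targeted gene did not overlap between genotypes, PL signals did, and a signal remained in the mutant. Signals are in log2. The arrays of both fractions were scaled together, so a TL of 0 is not a point at which equal amounts of an mRNA lie in PL and NP.

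All members but *RPP2C* and *RPP2E*, that is 8 of 10, had a mean log2 signal of at least 5 over the 12 arrays, the level above which a probe set is called brighter here (7182 of 22746 probe sets). Each gene is named by its family and the letter of its paralog in the study's list of ribosomal proteins (r-proteins). Each is read by a probe set of the type designed to match 1 transcript. Levels are compared within a gene and not between genes, since probes differ in brightness.

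The P1 genes among the members showed no separation of *eif3k* from WT with all samples. P1 is the partner of P2 in the stalk dimers. *RPP1A* (AT1G01100) had PL signals of 12.10, 11.87 and 11.44 and NP signals of 12.09, 12.14 and 11.21 in *eif3k* replicates 1, 2 and 3. In WT its PL signals were 12.21, 12.10 and 10.94 and its NP signals were 11.97, 12.12 and 11.30. Both fractions were lowest in replicate 3 of both genotypes. Its TL was 0.01, -0.27 and 0.23 in *eif3k* and 0.24, -0.02 and -0.36 in WT, values that overlap on both sides of 0, and the difference of *eif3k* minus WT was 0.04 ± 0.21 (SE, n = 3 each).

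*RPP1B* (AT4G00810), a P1 paralog, had PL signals of 8.96, 9.23 and 8.45 and NP signals of 9.27, 9.35 and 8.87 in *eif3k*, against PL signals of 9.34, 8.98 and 8.00 and NP signals of 9.11, 9.26 and 8.12 in WT. Its TL was -0.31, -0.12 and -0.42 in *eif3k* and 0.23, -0.28 and -0.12 in WT. The *eif3k* TL values overlapped with WT, and the difference was -0.23 ± 0.16 (SE). *RPP1C* (AT5G47700), the remaining P1 member, had PL signals of 11.06, 11.07 and 10.11 and NP signals of 11.68, 11.86 and 10.71 in *eif3k*. In WT its PL signals were 11.23, 11.28 and 10.07 and its NP signals 11.37, 11.70 and 10.96. The NP signal of *RPP1C* was above the PL signal in all 6 samples. Its TL was thus negative throughout, at -0.62, -0.79 and -0.60 in *eif3k* and -0.14, -0.42 and -0.89 in WT, with a difference of -0.19 ± 0.21 (SE). That value was -0.39 without WT replicate 3 and -0.01 without WT replicate 1. The overlap of *RPP1C* in TL came from WT replicate 3 alone.

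**Figure D1:**
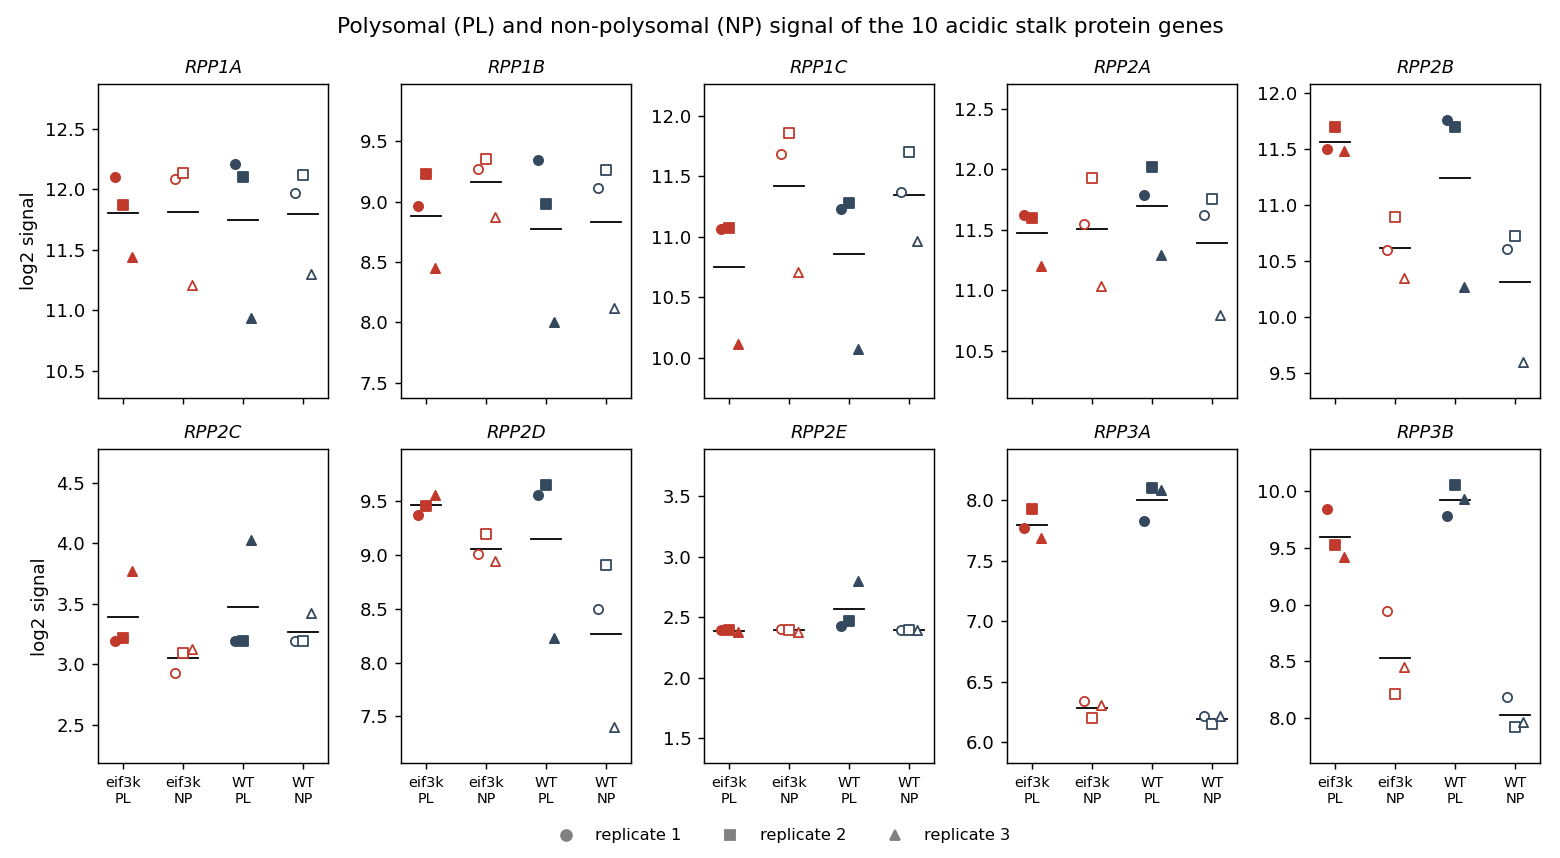
Log2 signal of each of the 10 stalk protein genes (1 panel per gene, vertical axis in log2 with its own range) in *eif3k* PL, *eif3k* NP, WT PL and WT NP; symbols mark replicates, filled for PL and open for NP, and lines are means of 3. The triangles of replicate 3 sit lowest in the P1 panels, whereas each P3 panel shows every PL value above every NP value. The *eif3k* NP values of *RPP3B* spread from 8.21 to 8.94.

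Among the P2 genes, *RPP2D* showed the widest gap between genotypes in TL. *RPP2D* (AT3G44590), a P2 paralog, had PL signals of 9.37, 9.46 and 9.56 and NP signals of 9.01, 9.20 and 8.95 in *eif3k*. In WT its PL signals were 9.56, 9.65 and 8.23 and its NP signals 8.50, 8.91 and 7.40. The NP signal was higher in every *eif3k* sample than in any WT sample, while the PL signals overlapped. Its TL was 0.36, 0.26 and 0.61 in *eif3k*, against 1.06, 0.74 and 0.83 in WT, so that the samples did not overlap. The mean TL was 0.41 ± 0.18 in *eif3k* and 0.88 ± 0.17 in WT (SD, n = 3 each), a difference of -0.47 ± 0.13 (SE, 95% interval -0.82 to -0.11). For NP the difference was 0.78 ± 0.43 (SE), and it was 0.35 without WT replicate 3.

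*RPP2A* and *RPP2B* are neighbouring genes on chromosome 2 with 0 annotated genes between them, and both encode P2. Their TL differed in every sample. *RPP2A* (AT2G27720) had PL signals of 11.62, 11.60 and 11.20 and NP signals of 11.55, 11.93 and 11.04 in *eif3k*, against PL signals of 11.79, 12.02 and 11.29 and NP signals of 11.62, 11.76 and 10.80 in WT. Its TL was 0.07, -0.33 and 0.16 in *eif3k* and 0.17, 0.26 and 0.49 in WT. The *eif3k* values of *RPP2A* all lay below the WT values, by a narrow margin, with a difference of -0.34 ± 0.17 (SE, 95% interval -0.78 to 0.10).

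*RPP2B* (AT2G27710) had PL signals of 11.50, 11.70 and 11.48 and NP signals of 10.60, 10.89 and 10.35 in *eif3k*. In WT the PL signals were 11.76, 11.70 and 10.27 and the NP signals 10.61, 10.72 and 9.60. Its PL signal exceeded its NP signal in all 6 samples, and WT replicate 3 was the lowest sample in both fractions. Its TL was 0.90, 0.81 and 1.13 in *eif3k* and 1.15, 0.98 and 0.67 in WT, and the difference of 0.01 ± 0.16 (SE) was smaller than the spread within either genotype. Within a sample, *RPP2A* lay below *RPP2B* in TL by 0.80 ± 0.34 (mean ± SD over 6 samples). The gap ran over -0.83, -1.14 and -0.97 in *eif3k* and -0.98, -0.72 and -0.18 in WT, smallest in WT replicate 3.

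The other P2 paralogs gave little signal. *RPP2C* (AT3G28500) ranged over 2.93 to 4.03 on the 12 arrays and *RPP2E* (AT5G40040) over 2.38 to 2.80, with 10 of its 12 arrays within 0.1 of the lowest signal of the data set. TL of -0.01, 0.00 and 0.00 in *eif3k* and 0.04, 0.08 and 0.41 in WT for *RPP2E* is thus a ratio of signals near that lower limit. *RPP2C* had TL of 0.26, 0.13 and 0.64 in *eif3k* and 0.00, 0.00 and 0.61 in WT, overlapping between genotypes.

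The P3 genes had the highest mean TL of the members in both genotypes. *RPP3B* (AT5G57290), which encodes a plant P3, had PL signals of 9.84, 9.52 and 9.42 and NP signals of 8.94, 8.21 and 8.45 in *eif3k*. In WT its PL signals were 9.78, 10.05 and 9.93 and its NP signals 8.19, 7.92 and 7.97. Every *eif3k* NP value was above every WT NP value, by as little as 0.02 between *eif3k* replicate 2 and WT replicate 1, and 2 of 3 *eif3k* PL values were below all WT PL values. Its TL was 0.90, 1.31 and 0.97 in *eif3k*, against 1.59, 2.13 and 1.96 in WT, with no overlap. The mean was 1.06 ± 0.22 in *eif3k* and 1.89 ± 0.28 in WT (SD, n = 3 each). The difference of -0.83 ± 0.19 (SE, 95% interval -1.34 to -0.33), a 1.78-fold lower ratio of PL to NP in *eif3k*, was the largest among the members. It had the same direction in all 3 same-numbered pairs, at -0.69, -0.82 and -0.99.

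*RPP3A* (AT4G25890), the other P3 gene, had PL signals of 7.77, 7.93 and 7.69 and NP signals of 6.34, 6.20 and 6.31 in *eif3k*, against PL signals of 7.83, 8.10 and 8.09 and NP signals of 6.22, 6.15 and 6.22 in WT. In each same-numbered pair the *eif3k* PL signal was the lower and the *eif3k* NP signal the higher. Its TL of 1.43, 1.73 and 1.38 in *eif3k* and 1.61, 1.95 and 1.87 in WT overlapped, with a difference of -0.30 ± 0.14 (SE, 95% interval -0.67 to 0.08).

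**Figure D2:**
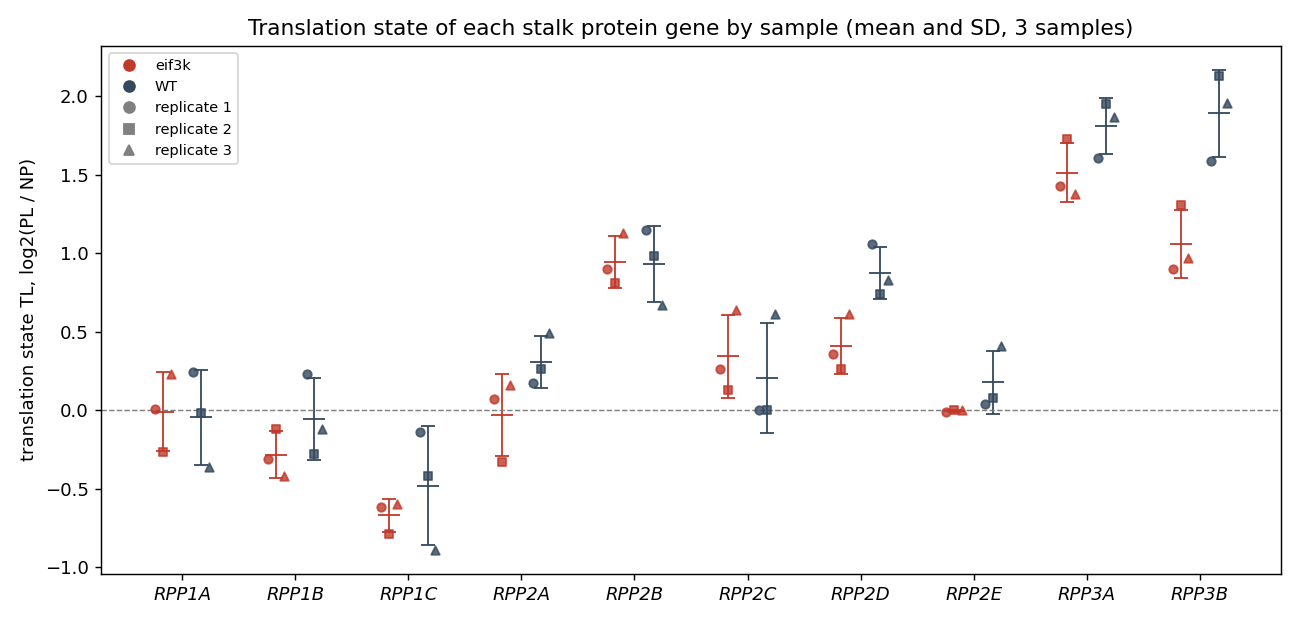
Translation state TL (vertical axis, log2 of PL over NP) of each stalk protein gene, *eif3k* in red to the left of WT in blue; symbols are replicates, crossbars with whiskers the mean and SD of 3 samples. *RPP3B* averaged 1.06 in *eif3k* and 1.89 in WT, and *RPP2D* 0.41 and 0.88.

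Across the 10 genes the differences of TL ranged from -0.83 for *RPP3B* to 0.14 for *RPP2C*. In the comparison of TL between genotypes with limma and Benjamini-Hochberg adjustment over all probe sets, 0 of 10 members met the call (a change of 1 or more in log2 with an adjusted p under 0.05), beside 0% of all 22746 probe sets (0 called, 612 with an unadjusted p under 0.05). The adjusted p of the members ran from 0.823 to 1. In simulated data the fit called only 18% of added TL changes of 2 in log2, so real changes can go uncalled. The samples of the genotypes did not overlap, with *eif3k* lower, for 4 of 10 members (*RPP2A*, *RPP2D*, *RPP2E* and *RPP3B*), beside 2.44% of all probe sets. Among brighter probe sets this held for 3 of 8 members, beside 3.36%. The samples did not overlap with *eif3k* higher for 0 of 10 members, beside 4.16% of all and 6.92% of brighter probe sets. Since the genes were proposed from these values, nothing is read from these counts.

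In PL, 0 of 10 members were called, beside 0% of all probe sets (436 with an unadjusted p under 0.05). Only *RPP2E*, near the lower limit, lay lower in all *eif3k* samples than in WT in PL, 1 of 10 members beside 1.57% of all probe sets, and none lay higher, beside 4.56%. In NP, 0 of 10 were called as well, beside 0% (721 with an unadjusted p under 0.05). *RPP2D* and *RPP3B*, 2 of 10 members, lay higher in *eif3k* without overlap in NP, beside 3.83% of all and 7.49% of brighter probe sets. *RPP2C*, 1 of 10, lay lower without overlap in NP, beside 2.47% of all probe sets. In signal level, taken as the average of the PL and NP signals of a sample, 0 of 10 members and 0.0044% of all probe sets were called. That 1 probe set was *QQS* (AT3G30720), named after its values were seen, at 7.94, 7.99 and 7.88 in *eif3k* and 4.58, 4.48 and 4.84 in WT (limma adjusted p = 0.0316). The call of *QQS* was lost with the replicate number as a block, with the array batch as a block, with quantile normalization and with any single sample but WT replicate 3 left out, where 0 probe sets were called. The level differences of the 8 brighter members ran from -0.06 for *RPP3A* to 0.55 for *RPP2D*, with SEs of 0.04 to 0.43. Without WT replicate 3 the level difference of *RPP2D* was 0.10, and the 8 ran from -0.31 (*RPP1C*) to 0.10. Fewer cells that express a gene and less mRNA per cell cannot be told apart in such bulk samples.

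**Figure D3:**
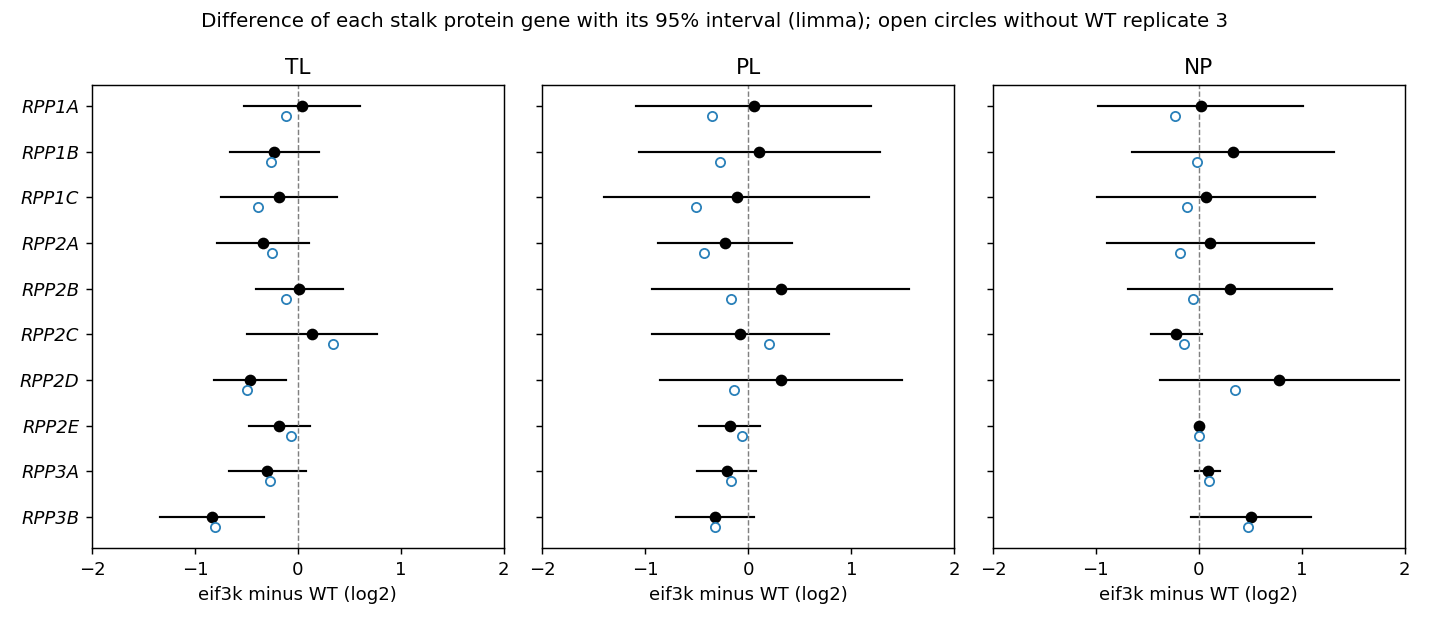
Difference of *eif3k* minus WT (horizontal axis, log2) for each stalk protein gene in TL, PL and NP; filled points and lines are the limma estimate and its 95% interval, open circles the estimate without WT replicate 3. The TL intervals of *RPP2D* and *RPP3B* lie below 0 before adjustment over all probe sets. Their NP estimates of 0.78 and 0.51 lie above 0, but the NP intervals of -0.38 to 1.94 and -0.08 to 1.09 include 0.

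The P1 signals were low in replicate 3 of both genotypes, as were those of most other r-protein genes. In replicate 3 compared with the mean of replicates 1 and 2, the PL signal of the 3 P1 genes was lower by 0.55 to 0.96 in *eif3k* and by 1.16 to 1.22 in WT. For other large-subunit r-proteins the median PL deviation was -0.485 in *eif3k* and -1.40 in WT, with 96 of 103 brighter probe sets below 0 in each. Over all brighter probe sets it was -0.095 in *eif3k* and -0.665 in WT. *RPP1C* dropped by 0.96 in *eif3k* PL and by 1.06 in *eif3k* NP. Of the P2 genes, *RPP2B* and *RPP2D* stayed close to replicates 1 and 2 in PL of *eif3k* replicate 3, with deviations of -0.12 and 0.15. In NP these were -0.395 and -0.155. *RPP2A* dropped by 0.41 in PL and by 0.70 in NP of that sample. In WT replicate 3, however, *RPP2B* dropped by 1.46 in PL and by 1.07 in NP, and *RPP2D* dropped by 1.38 in PL and by 1.31 in NP. The P3 genes did not share the drop. *RPP3A* and *RPP3B* lay within 0.26 of the mean of replicates 1 and 2 in both fractions of both genotypes. Replicate 3 is also the whole of array batch 2, and for the WT sample it is the sample that stood apart, so these cannot be told apart. Within array batch 1 the TL difference was -0.76 for *RPP3B*, -0.59 for *RPP2D*, -0.35 for *RPP2A* and -0.20 for *RPP3A*, and in array batch 2, with 1 sample per genotype, it was -0.99, -0.22, -0.33 and -0.49 in the same order. For *RPP1B* it was -0.19 in batch 1 and -0.30 in batch 2. The sign turned between batches for the other 3 brighter members, with -0.24 in batch 1 and 0.59 in batch 2 for *RPP1A*, -0.21 and 0.46 for *RPP2B*, and -0.42 and 0.29 for *RPP1C*.

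In WT replicate 3, PL and NP of the 6 brighter P1 and P2 genes were low together. Their TL deviated from the mean of the other WT samples by less than 1, downwards the most for *RPP1C* and *RPP1A* (-0.47), whose WT replicate 3 was their lowest WT sample. For the 8 brighter members, TL of replicate 3 minus the mean of replicates 1 and 2 had a median of 0.19 in *eif3k* and -0.08 in WT, where it ranged from -0.61 (*RPP1C*) to 0.28 (*RPP2A*). For the 103 brighter probe sets of other large-subunit r-proteins the median was -0.27 in *eif3k* and -1.01 in WT, and 50.5% of them were lower by more than 1 in WT. For 72 small-subunit r-proteins the median was -0.25 in *eif3k* and -0.68 in WT. Over all 7182 brighter probe sets, 34.8% were lower in TL by more than 1 in WT replicate 3, whereas 0 of 8 members were. The members were not spared in PL of that sample, where 5 of 8 were lower by more than 1. Beside them, 67 of 103 other large-subunit and 40 of 72 small-subunit probe sets were. In NP the median deviation was -0.82 for the members, -0.4 for other large-subunit and -0.46 for small-subunit probe sets. Members are paralogs read on the same arrays and were proposed from these values, so no test of the TL contrast between lists was made.

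**Figure D4:**
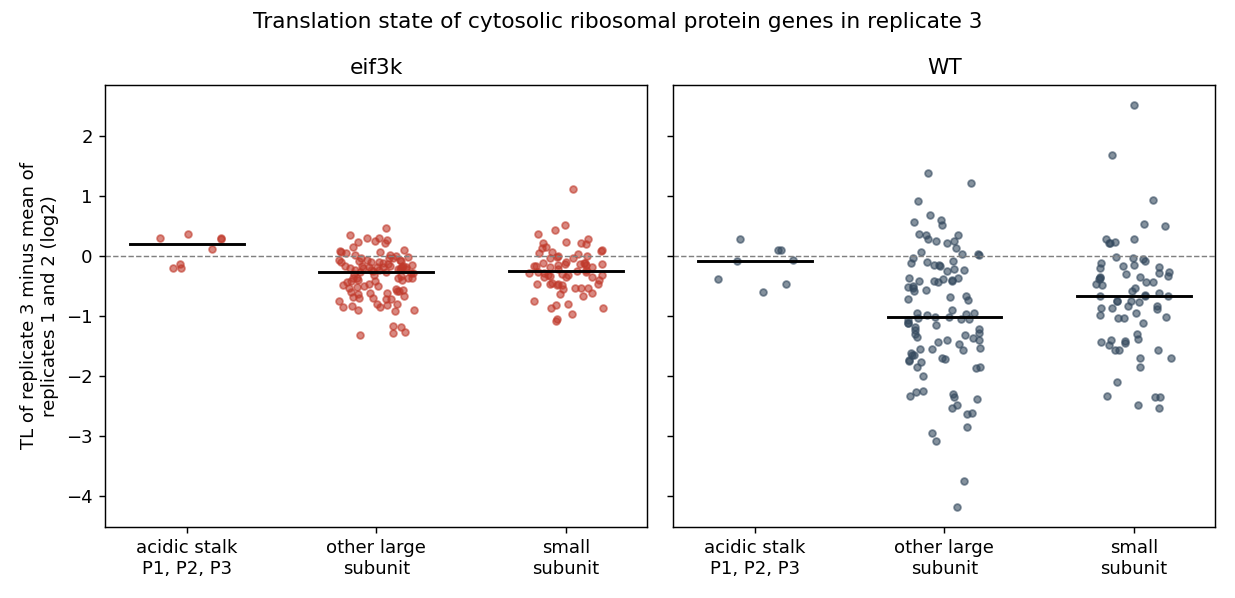
TL of replicate 3 minus the mean of replicates 1 and 2 (vertical axis, log2) for brighter probe sets of r-proteins, *eif3k* on the left and WT on the right; each point is a probe set and lines are medians. In WT the 8 stalk protein genes lie between -0.61 and 0.28, around a median of -0.08, and the other large-subunit genes around -1.01.

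The same sample bears on the comparison with other r-proteins. The TL difference of *eif3k* minus WT had a median of -0.26 over the 8 brighter members (6 below 0, 2 above), of 0.13 over the 103 other large-subunit probe sets (40 below 0, 63 above), of 0.00 over the 72 small-subunit ones (36 below, 36 above) and of 0.19 over all 7182 brighter probe sets. Without WT replicate 3 the medians moved to -0.26 for the members, -0.16 for other large-subunit, -0.18 for small-subunit and -0.01 for all brighter probe sets. In that setting 8 of 8 members, 84 of 103 large-subunit and 56 of 72 small-subunit probe sets lay below 0. Of all brighter probe sets, 3690 of 7182 did. The members' median was thus -0.26 with and without that sample, while the medians of the other lists moved towards it. Leaving out WT replicate 3 alone keeps *eif3k* replicate 3, the other sample of array batch 2. Without replicate 3 of both genotypes the TL medians were -0.29 for the members and -0.065 for other large-subunit probe sets. They were -0.11 for small-subunit and 0.03 for all brighter probe sets. The fractions moved with WT replicate 3 too. In PL, 4 of 8 brighter members lay below 0 in *eif3k* minus WT with all samples (median -0.03). Without WT replicate 3, 8 of 8 did (median -0.30), as did 95 of 103 other large-subunit probe sets (median -0.20). Of all brighter probe sets, 3572 of 7182 did. Without replicate 3 of both genotypes the PL medians were -0.18 for the members and -0.05 for other large-subunit probe sets. In NP, 8 of 8 members lay above 0 with all samples (median 0.21). Beside them, 68 of 103 other large-subunit, 52 of 72 small-subunit and 4064 of 7182 brighter probe sets did. Without WT replicate 3, 3 of 8 members lay above 0 in NP (median -0.04). In that setting 39 of 103, 29 of 72 and 3644 of 7182 did, in the order named. Over all brighter probe sets the median was 0.24 in PL and 0.06 in NP with all samples.

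In each sample, the median TL over all 10 members was 0.165, 0.065 and 0.42 in *eif3k* and 0.235, 0.17 and 0.55 in WT, overlapping between genotypes. Over the 8 brighter members it was 0.215, 0.07 and 0.42 in *eif3k* and 0.65, 0.50 and 0.58 in WT, without overlap. Over the 103 other large-subunit probe sets it was 0.32, 0.28 and 0.06 in *eif3k* and 0.39, 0.44 and -0.48 in WT. There the overlap came from WT replicate 3 alone. Over the 72 small-subunit ones it was 0.40, 0.24 and 0.135 against 0.275, 0.51 and -0.375. The members were proposed from these values, so nothing is read from their lack of overlap.

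By family, the mean TL of the 3 P1 genes was -0.32 ± 0.07 in *eif3k* and -0.20 ± 0.29 in WT (SD over 3 samples). That of the 3 brighter P2 genes was 0.44 ± 0.19 in *eif3k* and 0.71 ± 0.08 in WT, and that of the 2 P3 genes 1.29 ± 0.20 in *eif3k* and 1.85 ± 0.23 in WT. The order of the families, P3 above P2 above P1, was the same in both genotypes. The difference of *eif3k* minus WT was -0.13 for P1, -0.26 for P2 and -0.57 for P3. Without WT replicate 3, a setting chosen after seeing the data, it was -0.26 for P1, -0.29 for P2 and -0.53 for P3. The gap between P1 and P2 was thus smaller in that setting, which keeps *eif3k* replicate 3. Within array batch 1 the single TL differences were -0.24, -0.19 and -0.425 for *RPP1A*, *RPP1B* and *RPP1C*. They were -0.345, -0.21 and -0.59 for *RPP2A*, *RPP2B* and *RPP2D*.

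The order of the single genes by TL differed in part. From the highest, it ran *RPP3A*, *RPP3B*, *RPP2B*, *RPP2D*, *RPP1A*, *RPP2A*, *RPP1B* and *RPP1C* in *eif3k*. There, *RPP3B* and *RPP2B*, *RPP1A* and *RPP2A*, and *RPP2A* and *RPP1B* did not differ beyond the spread of their gap over 3 samples. In WT it ran *RPP3B*, *RPP3A*, *RPP2B*, *RPP2D*, *RPP2A*, *RPP1A*, *RPP1B* and *RPP1C*. There, *RPP3B* and *RPP3A*, *RPP2B* and *RPP2D*, *RPP2A* and *RPP1A*, and *RPP1A* and *RPP1B* did not differ beyond that spread. Of 28 pairs of brighter members, 22 had the same order in all 6 samples. *RPP3A* exceeded *RPP3B* by 0.53, 0.42 and 0.41 in *eif3k*, whereas the gap in WT was 0.02, -0.18 and -0.09. *RPP2B* exceeded *RPP2D* by 0.54, 0.55 and 0.52 in *eif3k* and by 0.09, 0.24 and -0.16 in WT. With *RPP1A* and *RPP2D*, these were 3 of 28 pairs whose gap did not overlap between genotypes, beside 11.9% of all pairs of brighter r-protein genes. The share of pairs was thus near that background and is not particular to the members.

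Against 183 brighter r-protein probe sets ranked from the highest TL, *RPP3B* ranked 31 in *eif3k* and 3 in WT, and *RPP3A* ranked 6 in *eif3k* and 5 in WT. *RPP2D* ranked 77 in *eif3k* and 34 in WT, and *RPP2A* 114 in *eif3k* and 82 in WT. At the other end *RPP1C* ranked 162 in *eif3k* and 140 in WT. *RPP1A*, at 111 in *eif3k* and 107 in WT, and *RPP1B*, at 135 in *eif3k* and 108 in WT, were in the lower part of the order in both genotypes. The WT ranks moved with WT replicate 3, in which the TL of other r-proteins was lower. Without it, a setting also chosen after seeing the data, *RPP3B* ranked 7 in WT, *RPP3A* 9, *RPP2B* 42, *RPP2D* 59 and *RPP2A* 108.

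The other genes of the stalk and of the factors that act on it gave another picture. Of 15 listed genes 10 were matched to a probe set, and 0 of 10 were called in TL. The matched ones were 2 further P1 genes, 4 of the P0 type, 3 of L12 and 1 of eEF1A, the factor that delivers aminoacyl-tRNA. The 2 eEF2 genes and 3 other eEF1A genes were not matched by locus and were not analysed here. The 2 further P1 genes, AT5G24510 and AT3G49460, stayed at or below 3.15 on all arrays.

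P0 forms the base of the stalk, and its genes differed in TL. AT3G09200 had TL of -1.88, -2.38 and -1.60 in *eif3k* and -1.99, -2.08 and -2.58 in WT, all negative and overlapping between genotypes. AT2G40010 had NP signals of 7.16, 8.29 and 6.43 in *eif3k* and 7.63, 8.10 and 6.37 in WT, but its PL signals of 3.14, 2.91 and 3.17 in *eif3k* and 3.18, 3.14 and 2.57 in WT lay near the lower limit, so its ratio is known only to be low. AT3G11250, dimmer at a mean of 4.77, ranged from -0.73 to 0.13 in *eif3k* and from -0.90 to 0.54 in WT. The P0-like AT1G25260 had -0.57, -1.02 and -0.90 in *eif3k* and -0.60, -0.75 and -2.57 in WT.

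For L12, the partner of P0 on the ribosomal RNA, TL of AT2G37190 was 0.04, -0.13 and -0.24 in *eif3k* and 0.00, -0.06 and -2.37 in WT. AT3G53430 had 1.07, 1.30 and 1.17 in *eif3k* and 1.22, 1.18 and -0.50 in WT, and AT5G60670 had 0.20, -0.26 and -0.41 in *eif3k* and -0.12, -0.38 and -1.88 in WT. For eEF1A, AT5G60390, read by a probe set that may match several transcripts, had 1.15, 1.36 and 1.36 in *eif3k* and 0.99, 1.16 and -1.68 in WT. Each of these 4 genes was low in WT replicate 3 alone, with deviations of -2.76 to -1.63 from the mean of WT replicates 1 and 2. Without that sample their TL differences were -0.08, -0.02, 0.09 and 0.22, in the order named.

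The patterns of log2 signal over the 12 arrays were compared between members. These correlations are a description, as the arrays share genotypes, fractions of the same lysate and array batches. The P3 genes *RPP3A* and *RPP3B* correlated at 0.96 (Pearson's r over 12 arrays), the 3 P1 genes at 0.80 to 0.87 among themselves, and *RPP2B* with *RPP2D* at 0.92. *RPP2A* was closer to *RPP1A* (0.84) than to *RPP2B* (0.65) or *RPP2D* (0.65). Between P1 and P3 genes r lay between -0.52 (*RPP1C* and *RPP3A*) and 0.01 (*RPP1A* and *RPP3B*).

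For each of the 8 brighter members, the 3 probe sets outside the set with the highest r were listed out of 7112 brighter ones with a single locus. Of these 24, 1 was a cytosolic r-protein, the L27 gene AT3G22230 beside *RPP1C* (r = 0.96), and 178 of the 7112 searched (2.50%) encode cytosolic r-proteins. The probe set of *PSAH-1*, for a photosystem I subunit, was nearest to *RPP3A* (r = 0.99) and second for *RPP3B* (r = 0.97). *RPP3A* also had *CKS2*, for a regulatory subunit of cyclin-dependent kinase, and *HTB11*, for a histone H2B, among its nearest (r = 0.99 and 0.98). *RPP3B* was nearest to AT2G23120 (r = 0.97), with *TOM22-V*, for a mitochondrial import protein, next after it (r = 0.965). *RPP2B* was nearest to *EMP1* (r = 0.99), then to *NDPK3*, for a nucleoside diphosphate kinase, and *emb1345* (r = 0.98 each). *RPP2D* was nearest to *LysoPL2* (r = 0.96), *RPP2A* to *CER1* (r = 0.91), *RPP1A* to AT4G24780 (r = 0.94), *RPP1B* to *PHB3*, a prohibitin (r = 0.94), and *RPP1C* to AT4G38860 (r = 0.96).

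The tissue label was checked against marker genes. All 6 matched of 8 green tissue markers were brighter, with summed log2 levels of 80.2 to 81.2 in *eif3k* and 77.2 to 80.9 in WT. Of 10 matched root markers 1 was brighter and 4 lay at the lower limit on every array, with sums of 30.4 to 31.6 in *eif3k* and 29.6 to 31.9 in WT. The 6 pollen markers (3 at the lower limit on every array) summed to 15.0 in all *eif3k* samples and to 15.0 to 16.0 in WT, and the 5 matched markers of dividing cells to 22.3 to 24.2 in *eif3k* and 21.5 to 23.1 in WT. The 9 seed storage markers summed to 22.3, 21.1 and 45.0 in *eif3k* and to 21.1, 21.2 and 22.6 in WT, so that *eif3k* replicate 3 stood apart in them. Their part in the results above was not tested. Without *eif3k* replicate 3 the TL difference was -0.79 for *RPP3B* and -0.57 for *RPP2D*.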

How the data were processed

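The deposited log2 signals per probe set of 12 arrays were background-corrected and normalized by the authors, with GCRMA in the submitters' processing notes, RMA in the methods of the study, and no version given. Day length is a long day in the labels and continuous light in the methods, and the genome build is not given in the sources used here. Deposited TL columns, which are log2 ratios, equalled log2 PL minus log2 NP within 0.01 and were recomputed. Of 22810 probe sets, 64 controls were left out. Array data carry no read depth, and 3 replicates per group limit the precision.

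Genotypes were compared in TL, level, PL and NP with limma 3.58.1 in R 4.3.3 (lmFit, eBayes, two-sided, Benjamini-Hochberg adjustment over 22746 probe sets) and a call needed a change of 1 or more with an adjusted p under 0.05. The fit was tested on simulated data. There it called 18% of added TL changes of 2 in log2 and 38% of changes of 3, so most were missed. Intervals are 95%. Plots used matplotlib 3.10.9. The p-values measure the spread between samples that the labels number as replicates. The study's methods count the WT samples among biological replicates, and part of the spread may still be technical.

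Same-numbered replicates, numbered in the labels, deviated together from their group means over 7182 brighter probe sets, with correlations of 0.155, 0.289 and 0.233 in TL, of 0.227, 0.306 and 0.172 in level, of 0.137, 0.295 and 0.196 in PL and of 0.309, 0.313 and 0.193 in NP. They were taken to pair the samples, although pairing and array batch cannot be told apart for replicate 3. The main fits had no block.

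The members and lists were chosen with earlier results of these data known. All members were named, with a fixed list of P0, L12, eEF2, eEF1A and further P1 genes, and the 3 probe sets with the highest Pearson's r to each brighter member. Genes were named from the annotation in the deposited table and from TAIR10.1, which held 10 of 10 members. Alternatives were a block for replicate or array batch, each sample or replicate number left out, quantile normalization, brighter probe sets alone, no minimum change and an interaction over 12 arrays. The authors' second table held the same values (0 cells differed) and gave no alternative. No sequences are shown.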

Additional observations from a re-analysis of the deposited data

Results flagged for a closer look

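*RPP3A* was picked out because *eif3k* minus WT ran in opposite directions in the gradient pools, with 3 of 3 same-numbered pairs lower in PL (mean -0.21) and 3 of 3 higher in NP (mean 0.09). With quantile normalization these means were -0.46 in PL and 0.04 in NP. The difference between them, -0.30, is its TL difference, which limma did not call (adjusted p = 0.823). Groups of 3 samples were too small for the test for single outlying samples.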

How the results depend on the processing

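With the replicate number as a block, 0 probe sets were called in TL, PL and NP, and 0 in signal level, against 1 without the block; the block changed no call of a member, as 0 of 10 members were called in any of 61 fits. No TL difference of a member reached 1 in any setting, so in TL none could be called where a change of 1 was required. In NP the difference of *RPP2D* was 1.03 without replicate 2 and 1.10 without WT replicate 2, and it was not called. The count of members called says nothing about stability. The lowest adjusted p of a member in any fit was 0.639 (limma). In signal level the count was also 0 with the array batch as a block and with quantile normalization, 0 to 1 when replicates or samples were left out (1 only without WT replicate 3), and 2 with no minimum change. In PL it was 3 with no minimum change and 0 to 1 with samples left out (1 without *eif3k* replicate 1, 2 or 3). In NP it was 1 with brighter probe sets only. In TL it was 0 in all 16 fits. The median TL over the members moved to 0.65 in WT replicate 1 and to 0.50 in WT replicate 2 when only the 8 brighter members were used. These per-sample medians do not change when another sample is left out. Of 300 alternative values of the 30 member differences in TL, PL and NP, 46 had another sign and 6 moved by more than the replicate spread. The TL difference of *RPP3B* kept its sign in 10 of 10 alternatives, between -0.98 and -0.72, as did those of *RPP2D* (-0.59 to -0.35), *RPP2A* (-0.47 to -0.19) and *RPP3A* (-0.49 to -0.20, the lowest with quantile normalization). *RPP1B* (-0.42 to -0.07) and *RPP1C* (-0.42 to -0.01) also kept their sign over a wide range. Those of *RPP1A* (-0.24 to 0.18) and *RPP2B* (-0.21 to 0.15) changed sign. The causes were not tested. The ratios of *RPP2C* and *RPP2E* rest on signals near the lower limit.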
